A study of Mus musculus with 17 samples.

Results

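Of the 36172 mouse genes in the deposited table, 1054 (2.91%) had Pol II at the promoter but little over the rest of the gene. They were chosen by their values in the control libraries: a promoter signal of at least 500 for Pol II phosphorylated at serine 5 (Ser5P), and a gene body signal below 40 both for Ser5P and for total Pol II. In all, 6399 genes reached 500 at the promoter (promoter-loaded genes), so the members are 16.5% of them, and the other 5345 are the genes they are set beside. The cells were primary fibroblasts from C57Bl/6 mouse embryos, with chromatin pooled from 3 lines. They were infected with a lentivirus and kept in puromycin, carrying either a hairpin against Rpap1 (shRPAP1 #5, called shRPAP1) or a non-targeting hairpin (shSCR, called SCR), and were harvested at day 3. RPAP1 binds RNA polymerase II, and the comparison asks how its depletion changes Pol II along genes. Each antibody, total Pol II (N-20, against the N terminus of RPB1) or Ser5P, gave 1 shRPAP1 and 1 SCR library. A single hairpin was used, there are no replicates, and higher and lower refer to these 4 libraries.

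Pol II is recruited to promoters by the general transcription factors, and serine 5 of its C-terminal repeats is phosphorylated as it starts. At many genes it then stops a short way downstream and is released into the gene body only after further kinase activity, a step known as promoter-proximal pausing. ChIP reads no strand, so polymerase that starts on the opposite strand at the same place is counted with the gene.

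The start regions of 4 of the 10 members with the highest Ser5P promoter signals in SCR, predicted names left out, are shown first. They run from a CpG-rich start to a CpG-poor one, and their values are described in turn further on. The windows run from 250 bases before to 50 bases after a RefSeq start on GRCm38.p6, on the strand of the gene. Capitals mark matches, on either strand, to 8 short motifs: the TATA box TATAAA, the SP/KLF box GGGCGG, the CCAAT box CCAAT, the ETS motif CCGGAAG, the NRF1 motif GCGCATGC, the cyclic AMP response element TGACGTCA, the E-box CACGTG and the YY1 motif AAGATGGCG. The SP/KLF and CCAAT matches also appear as their complements CCGCCC and ATTGG. The Taf13 window is chr3:108571449-108571748 on the plus strand, that of Prmt7 chr8:106210804-106211103 on the plus strand, that of Capn10 chr1:92934158-92934457 on the plus strand and that of Tnfrsf9 chr4:150919905-150920204 on the plus strand.
Taf13: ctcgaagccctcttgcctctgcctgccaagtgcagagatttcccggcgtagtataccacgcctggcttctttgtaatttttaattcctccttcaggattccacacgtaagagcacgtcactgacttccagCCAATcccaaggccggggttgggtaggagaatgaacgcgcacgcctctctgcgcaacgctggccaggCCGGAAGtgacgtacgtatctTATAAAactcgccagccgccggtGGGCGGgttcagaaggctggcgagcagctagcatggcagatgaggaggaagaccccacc
Prmt7: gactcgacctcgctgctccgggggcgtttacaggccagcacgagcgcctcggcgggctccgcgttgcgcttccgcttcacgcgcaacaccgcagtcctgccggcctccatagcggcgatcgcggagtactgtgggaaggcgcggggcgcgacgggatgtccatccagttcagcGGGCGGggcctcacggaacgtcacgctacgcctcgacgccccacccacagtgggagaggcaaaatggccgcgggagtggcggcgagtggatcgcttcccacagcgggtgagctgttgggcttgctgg
Capn10: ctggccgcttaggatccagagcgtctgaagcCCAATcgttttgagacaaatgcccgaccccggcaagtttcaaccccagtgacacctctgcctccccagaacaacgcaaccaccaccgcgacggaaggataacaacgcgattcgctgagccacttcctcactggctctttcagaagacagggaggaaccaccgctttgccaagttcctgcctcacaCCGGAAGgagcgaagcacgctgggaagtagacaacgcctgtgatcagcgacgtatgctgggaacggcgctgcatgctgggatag
Tnfrsf9: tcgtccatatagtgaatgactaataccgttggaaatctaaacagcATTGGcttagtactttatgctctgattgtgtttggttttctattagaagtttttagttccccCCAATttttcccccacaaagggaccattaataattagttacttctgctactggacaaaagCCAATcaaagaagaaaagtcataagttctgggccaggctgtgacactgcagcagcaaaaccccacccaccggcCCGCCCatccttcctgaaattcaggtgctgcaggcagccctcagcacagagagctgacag
The Taf13 window holds a CCAAT box, an ETS motif, a TATA box and an SP/KLF box in that order towards the start. The Prmt7 window holds 1 SP/KLF box and 39 CpG dinucleotides, and the Tnfrsf9 window 3 CCAAT boxes, 1 SP/KLF box and 4 CpG dinucleotides. CpG-rich starts such as that of Prmt7 were the rule among the members. Over the 836 members with a RefSeq window, the median GC content was 60.7% and the median ratio of observed to expected CpG 0.797, against 61% and 0.808 for the 4157 other promoter-loaded genes with a window, and 52.7% and 0.386 for all 27025 RefSeq promoters.

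Motif content was close to that of the other promoter-loaded genes. The SP/KLF box was found in 67.7% of members, 68.2% of other promoter-loaded genes and 35.9% of all RefSeq promoters. The CCAAT box was in 42.9%, 40.5% and 38% of the same 3 sets, and the ETS motif in 23.2%, 24.9% and 9.13%. NRF1 motifs were in 9.45% of members (79 promoters), 7.0% of other promoter-loaded genes and 2.79% of all promoters. The TATA box was in 5.98% of members, 7.84% of other promoter-loaded genes and 14.1% of all promoters. The remaining shares were 4.19%, 4.19% and 1.85% for the cyclic AMP response element, 10.9%, 11.4% and 7.22% for the E-box, and 4.55%, 4.40% and 1.48% for the YY1 motif. A match here is a run of letters and says nothing about whether a factor binds.

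Because the rule used 3 SCR columns, the SCR values of Ser5P and of the total Pol II gene body describe how the members were picked. The total Pol II promoter signal in SCR and all 4 values in shRPAP1 were not used by it. Just inside the promoter threshold were Gin1 (Ser5P promoter signal of 500.5 in SCR) and Stk11ip (501), and just outside were Slc35d2 and Rad51c (both 499.8). At the Ser5P gene body threshold the values were 39.99 for Stat5b and 39.98 for Ccs inside, and 40 for Gm26549 and BC068281 outside. At the total Pol II gene body threshold they were 39.98 for Ddx60 and 39.9 for Nfrkb inside, and 40.02 for Fam149b and 40.05 for Zfp760 outside. The gene body threshold falls within a continuous range of values, as the plot of Ser5P gene body against promoter signal shows.

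**Figure D1:**
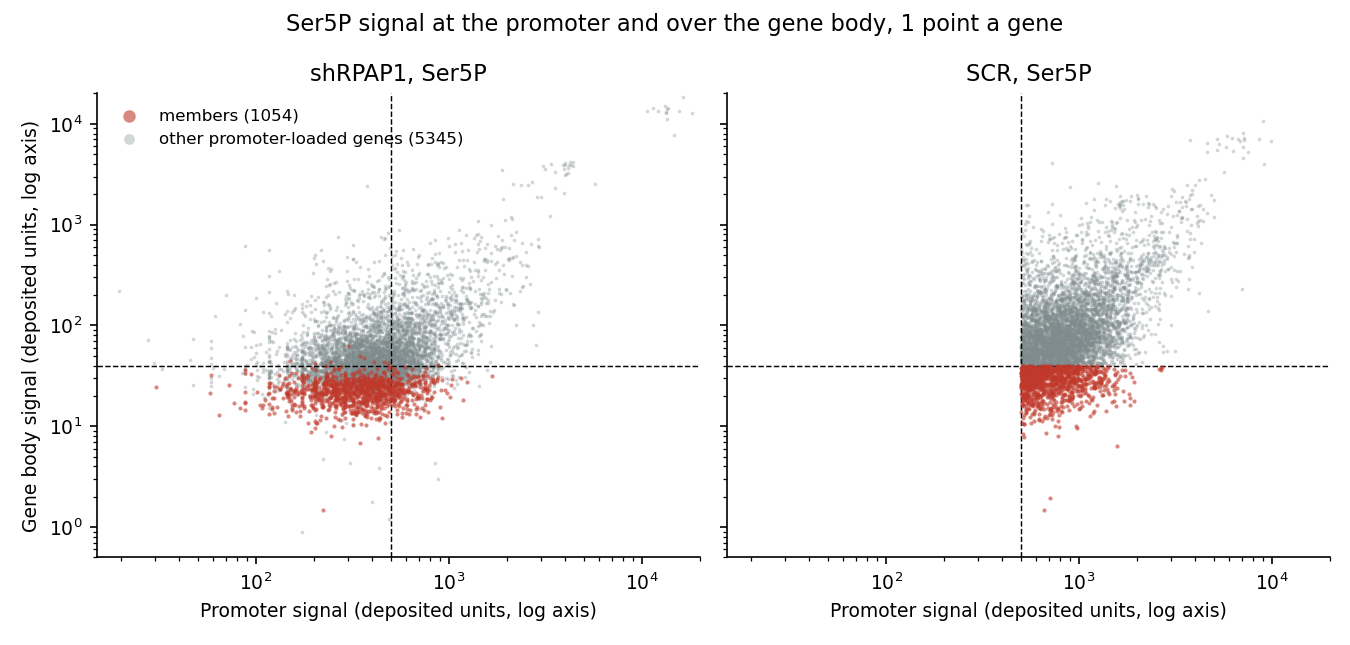
Ser5P signal at the promoter (horizontal, log axis) and over the gene body (vertical, log axis) in the shRPAP1 library (left) and the SCR library (right), in deposited units. Each point is a gene, red for the 1054 members and grey for the 5345 other promoter-loaded genes, and dashed lines mark 500 and 40. The sharp edges on the right are the rule. On the left 196 members still reached 500 at the promoter, beside 1940 of the 5345 other promoter-loaded genes. Of the 3315 of these with a Ser5P SCR promoter signal under 1000, 461 did.

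Values were used as deposited. One read was worth 28.8 units at a promoter, so the members held a median of 5 reads per promoter in shRPAP1 and 9 in SCR for total Pol II, and 12 in shRPAP1 and 24 in SCR with Ser5P. All promoters of the table together held 71336 reads in shRPAP1 and 129667 in SCR for total Pol II, and 156188 in shRPAP1 and 290773 in SCR with Ser5P. Genes that are silent in fibroblasts went the other way: over 1811 olfactory, vomeronasal, taste and trace amine receptor genes, taken as background, the mean gene body signal was 12.6 in shRPAP1 and 7.0 in SCR for total Pol II, and 9.9 in shRPAP1 and 5.8 in SCR with Ser5P. How the libraries were scaled to each other is not given in the sources used here, and each change below is therefore relative to that scale. The tissue label was checked on gene bodies: 10 fibroblast genes had a median of 184 in shRPAP1 and 433 in SCR with total Pol II, while the medians of blood, endothelial, epithelial, muscle, neural and pluripotent markers lay between 4.45 and 20.98 in every library, and none of those lists' SCR medians with total Pol II passed 17.9.

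In shRPAP1, members had less Pol II at the promoter with both antibodies. The rule used neither promoter column of total Pol II, though it capped the gene body of the same SCR library. The median total Pol II promoter signal of the 1054 members was 139.6 in shRPAP1 and 262.9 in SCR. The middle range (quartiles) was 87.3 to 203 in shRPAP1 and 192 to 361 in SCR. The median of the log2 ratio per gene was -0.95 (95% order-statistic interval -1.03 to -0.89), a 1.93-fold lower signal. Of 1051 members measured, meaning above the 95th percentile of background genes in at least 1 of the 2 libraries, 708 (67.4%) were at least 1.5-fold lower and 31 (2.95%) at least 1.5-fold higher. Across all 14423 genes measured in the table, 69.2% were lower by that much and 7.4% higher, so the share of members that were lower lay near the background. The median over those genes was a log2 ratio of -1.07, and if it is set to 0 the members' median becomes 0.12, so the lower level holds on the deposited scale and not relative to other genes. Summed over members, the promoters held 5525 reads in shRPAP1 and 10635 in SCR (log2 ratio -0.94, 95% counting interval -0.99 to -0.90). Intervals of reads here and below cover counting error only, and those of medians reflect the spread across genes, which are treated as independent.

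At total Pol II promoters the members' median ratio was less negative than that of the other promoter-loaded genes. Those had a median log2 ratio of -1.11 (-1.14 to -1.09), and the 3315 of them with a Ser5P promoter signal under 1000 in SCR, closer to the members' level, -1.10 (-1.14 to -1.07). The members' median was thus higher by 0.16 and 0.15 on the log2 scale. With the mean background signal subtracted from each library the medians were -1.06 for members, -1.20 for the other promoter-loaded genes and -1.22 for those under 1000. Members had a median promoter signal of 139.6 in shRPAP1 and 262.9 in SCR. The other promoter-loaded genes had 169 in shRPAP1 and 355 in SCR, and those under 1000 had 134 and 289. The rule capped the gene body of the same total Pol II SCR library, so the gap describes the chosen genes. With 1 library per condition, whether such a gap would recur in another pair of libraries was not measured.

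With Ser5P, the median promoter signal was 344.0 in shRPAP1 and 694.2 in SCR, a median log2 ratio of -1.09 (-1.14 to -1.06). Here 927 of 1054 members were lower by at least 1.5-fold and 0 higher by at least 1.5-fold, while 68.9% of 17056 genes measured were lower and 11.4% higher. Nothing is read from that contrast between members and all genes, because a gene had to be at 500 or more in the SCR library to be a member. The median log2 ratio of the other promoter-loaded genes, picked by the same promoter threshold, was -1.10. With the median of all measured genes set to 0 the members' median with Ser5P was -0.13. In shRPAP1, 1053 of 1054 members lay above the 95th percentile of background promoters with Ser5P and 900 with total Pol II. In SCR, 1048 lay above it with total Pol II. Counts by single library were not made for other genes. In at least 1 library of a pair, 5345 of the 5345 other promoter-loaded genes lay above it with Ser5P and 5339 with total Pol II. Of all 36172 genes, 17056 did with Ser5P and 14423 with total Pol II.

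**Figure D2:**
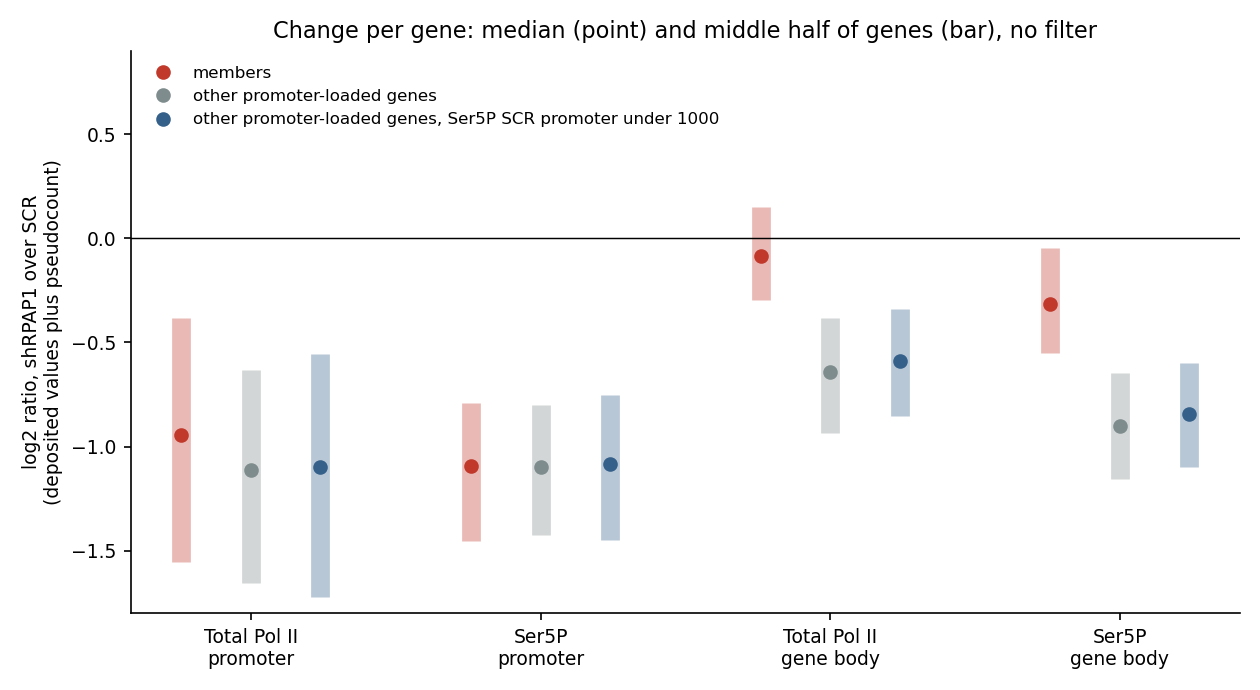
Log2 ratio of shRPAP1 over SCR (vertical axis) for each antibody and region in members (red), other promoter-loaded genes (grey) and those with a Ser5P SCR promoter signal under 1000 (blue); points are medians and bars run from the lower to the upper quartile over all genes of a set, with no filter on low values. At promoters the 3 medians lie between -1.11 and -0.95, and over gene bodies the members' medians are -0.084 with total Pol II and -0.31 with Ser5P.

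Over gene bodies the median total Pol II gene body signal was 22.4 in shRPAP1 and 23.9 in SCR, and with Ser5P it was 22.4 in shRPAP1 and 28.8 in SCR. The median log2 ratio over all 1054 members was -0.084 (-0.12 to -0.058) with total Pol II and -0.31 (-0.34 to -0.29) with Ser5P. Among the 427 members measured with total Pol II, 42 were at least 1.5-fold lower and 2 higher, against 47.7% lower and 7.92% higher of all genes measured. Among the 836 measured with Ser5P, 226 were lower and 12 higher, against 59.2% lower and 8.99% higher of all genes measured. Both counts rest on SCR values that the rule capped at 40, so their distance from the background is not a result about the members. The filter also let members in mostly through SCR. With total Pol II 426 members passed it in SCR and 19 in shRPAP1, and with Ser5P 829 in SCR and 77 in shRPAP1. Passing in SCR favours a lower ratio, so the counts and medians of measured members describe that choice. The other promoter-loaded genes, with gene body medians of 42.6 in shRPAP1 and 65.0 in SCR with total Pol II, had median log2 ratios of -0.64 with total Pol II and -0.90 with Ser5P without a filter. With the median of all measured genes set to 0, the medians of the measured members were 0.34 for total Pol II and 0.32 for Ser5P, and the sign over gene bodies depends on the scale. With the background mean subtracted they were -0.73 for total Pol II and -0.88 for Ser5P, and with the background means set equal -1.05 and -1.16.

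Many of the low gene body values lay below the 95th percentile of silent genes, but the members' medians lay above the background medians. With total Pol II the members' median was 22.4 in shRPAP1 and 23.9 in SCR, and that of background genes 12.4 and 0.39. With Ser5P the members' median was 22.4 in shRPAP1 and 28.8 in SCR, and that of background genes 4.4 and 0.38. The SCR medians of background genes lay close to their lower quartile of 0.37, so means are given too. Mean total Pol II was 22.7 for members against 12.6 for background in the shRPAP1 library. The SCR library had 24.3 against 7.0. Mean Ser5P was 22.7 against 9.9 for shRPAP1, with 28.2 against 5.8 for SCR. Reads per background gene body were not compared with those of members, so the percentile counts that follow may not compare like with like. In shRPAP1, 19 of the 1054 members lay above the 95th percentile of background gene bodies with total Pol II (37.3 units) and 77 with Ser5P (31.1 units), a level that 5% of background genes exceed by definition. In SCR, where the background itself was lower, 426 lay above it with total Pol II (25.8 units) and 829 with Ser5P (21.5 units), but the rule used these SCR columns, so the counts only describe the choice of members. Both gene bodies were below 40 in shRPAP1 as well for 1037 of the 1054 members. A median gene body held 83 reads in shRPAP1 and 88 in SCR with total Pol II, so these values are counted more precisely per gene than those of promoters.

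The ratio of promoter to gene body signal was lower in shRPAP1 than in SCR for most members with both antibodies. In shRPAP1, whose values the rule did not use, the median member had 6.15 times as much total Pol II per base at the promoter as over the gene body, against 10.96 times in SCR. With Ser5P it was 15.4 times in shRPAP1 and 25.6 times in SCR. The other promoter-loaded genes had 3.60 times in shRPAP1 and 5.06 times in SCR for total Pol II, and 7.88 times in shRPAP1 and 9.48 times in SCR with Ser5P. In the shRPAP1 libraries too, then, the members' median ratio was above that of the other promoter-loaded genes. The change per gene, shRPAP1 minus SCR, had a median of -0.90 on the log2 scale with total Pol II, with 886 of 1054 members below 0, and of -0.85 with Ser5P, with 960 below 0. Among other promoter-loaded genes it was -0.43 and -0.20. The rule took members with a high Ser5P promoter and low gene bodies in SCR, so neither the lower ratio in shRPAP1 nor its gap to other genes is read as a result. Fewer engaged polymerases per promoter and fewer cells with an engaged polymerase cannot be told apart in pooled chromatin.

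Total Pol II and Ser5P at the same promoter had similar median proportions in both conditions. The median log2 ratio of total Pol II over Ser5P at members' promoters was -1.33 in shRPAP1 and -1.45 in SCR, against -1.37 in shRPAP1 and -1.36 in SCR for other promoter-loaded genes. The units of the antibodies differ, so a ratio below 0 does not say that less Pol II than Ser5P was present. Across the 1054 members, as a description, the Spearman correlation was 0.59 between total Pol II and Ser5P promoters in SCR, 0.61 between Ser5P promoters in shRPAP1 and SCR, and 0.45 between total Pol II promoters in shRPAP1 and SCR. Between promoter and gene body of the same library it was 0.05 with total Pol II in shRPAP1, 0.09 with total Pol II in SCR and 0.08 with Ser5P in shRPAP1. These are points of shared libraries with few reads each, and the capped range of the gene body narrows such a correlation.

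The highest Ser5P promoter signal of all members in SCR was that of Taf13, which encodes a subunit of the general transcription factor TFIID. It had a total Pol II promoter signal of 538 in shRPAP1 and 1321 in SCR, and a Ser5P promoter signal of 1672 in shRPAP1 and 2709 in SCR. Its gene body, in contrast, had 23.8 in shRPAP1 and 35.5 in SCR with total Pol II. Both promoter values were lower in shRPAP1, with a log2 ratio of -1.29 (counting interval -2.13 to -0.48) with total Pol II. Aasdh had a promoter signal of 167 in shRPAP1 and 611 in SCR with total Pol II, a log2 ratio of -1.87 (-3.41 to -0.45).

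The other genes shown from this group had signals of the same order. Hars2, the mitochondrial histidyl-tRNA synthetase, had a total Pol II promoter signal of 422 in shRPAP1 and 695 in SCR, and its start lies 3 bases from that of Hars, the cytosolic enzyme, on the other strand. Hars had a total Pol II gene body signal of 22.1 in shRPAP1 and 49.5 in SCR, and the reads at the shared start cannot be assigned to either gene. Prmt7, an arginine methyltransferase, had 325 in shRPAP1 and 520.0 in SCR, and shares its start region with Slc7a6os, which lies 121 bases upstream on the other strand and had a gene body signal of 66.2 in shRPAP1 and 122 in SCR. The reads at these starts cannot be told apart either. Tbc1d5, a GTPase-activating protein for Rab proteins, is 448076 bases long and had 402 in shRPAP1 and 803 in SCR at the promoter, with gene body signals of 28.6 in shRPAP1 and 29.2 in SCR.

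Capn10, a calpain protease, had a Ser5P promoter signal of 427 in shRPAP1 and 1739 in SCR, the lowest shRPAP1 value among the genes plotted. Ccdc101, the SGF29 subunit of the SAGA coactivator complex, had 757 in shRPAP1 and 1726 in SCR with Ser5P. Tnfrsf9, the TNF receptor family member 4-1BB, had 601 in shRPAP1 and 1685 in SCR with Ser5P. The shRPAP1 value was the lower one in every library pair of these 3 genes, and with Ser5P their choice by the SCR value favours this. Zswim3 had 918 in shRPAP1 and 1678 in SCR with Ser5P, and 365 in shRPAP1 and 764 in SCR with total Pol II. The plot of promoter signal by gene shows counting intervals that still overlap between shRPAP1 and SCR for several genes with total Pol II.

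**Figure D3:**
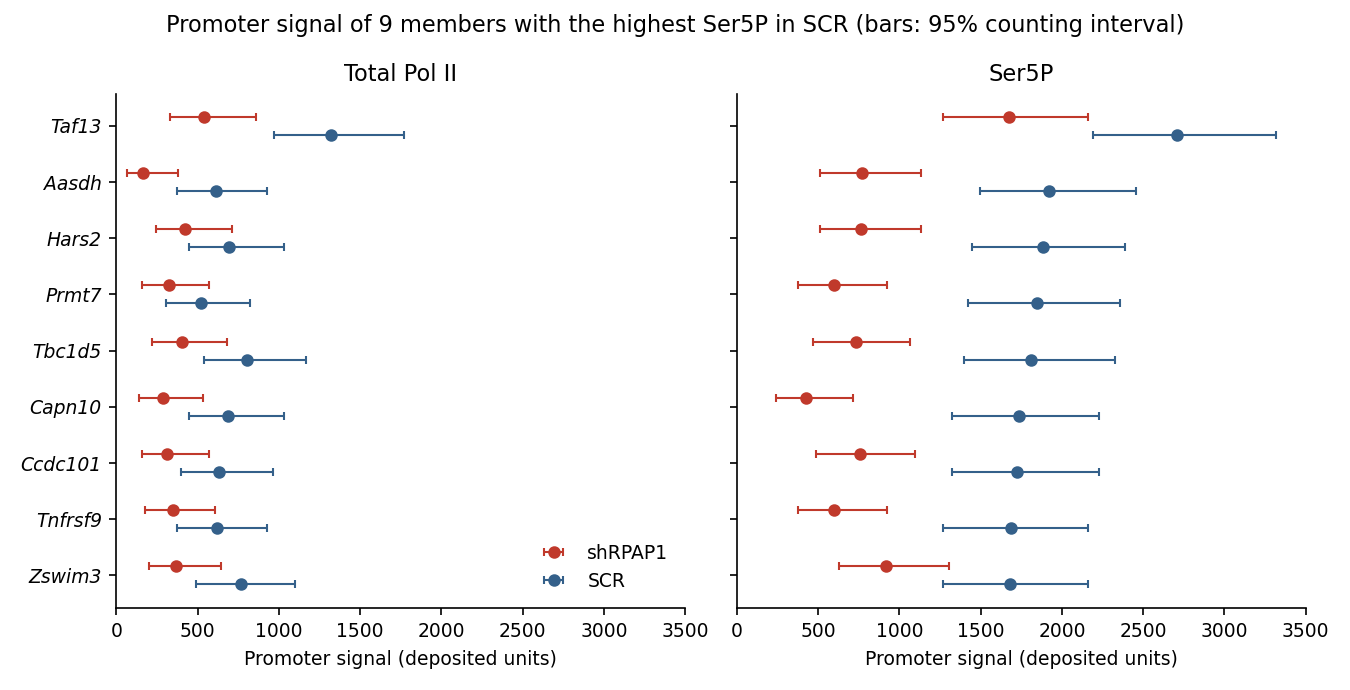
Promoter signal in deposited units (horizontal axis) of 9 members with the highest Ser5P in SCR, with total Pol II (left) and Ser5P (right), in shRPAP1 (red, upper point) and SCR (blue, lower point); bars are exact 95% Poisson intervals of the read counts. Every shRPAP1 point lies at a lower value than its SCR point, from 1672 against 2709 for Taf13 to 427 against 1739 for Capn10 with Ser5P. The genes were picked by their Ser5P signal in SCR, which favours a lower value in shRPAP1 with Ser5P.

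With a median of 5 reads in shRPAP1 and 9 in SCR, single total Pol II promoters were seldom distinguishable between the libraries. The counting interval of the total Pol II log2 ratio lay wholly below 0 for 180 of 1054 members and wholly above 0 for 0, and that of Ser5P for 594 and 0. The same counts were not made for other genes, and the rule required a Ser5P signal of at least 500 in SCR. Neither count is therefore read as a result about the members. Coverage was absent at 21 members in the total Pol II shRPAP1 library. Among members with at least 10 reads over both total Pol II libraries, the lowest ratios belonged to Fbxo10, an F-box adaptor of SCF ubiquitin ligases, Med18, a Mediator subunit, Tmem42, Ccdc138 and Nt5dc3. The first 4 of these were listed with no promoter coverage in shRPAP1, against 376, 333, 289 and 282 in SCR, which is 13, 12, 10 and 10 reads. With Ser5P, Fbxo10 had 317 in shRPAP1 and 523 in SCR, and Med18 had 275 in shRPAP1 and 667 in SCR, so with that antibody the promoters were occupied in both. The upper bound of the log2 ratio with total Pol II was -1.61 for Fbxo10 and -1.47 for Med18.

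At the other end stood Psmb9, Psmg2, Mon1a, Kbtbd3 and Nqo1, ranked by the same ratio. Psmb9, a catalytic subunit of the immunoproteasome, had a total Pol II promoter signal of 283 in shRPAP1 and 87.3 in SCR, and a Ser5P promoter signal of 314 in shRPAP1 and 593 in SCR. Tap1, a peptide transporter of antigen presentation that starts 226 bases upstream on the other strand, had 288 in shRPAP1 and 89.4 in SCR with total Pol II. Nqo1, a quinone reductase, had 221 in shRPAP1 and 123 in SCR for total Pol II, and 414 in shRPAP1 and 551 in SCR with Ser5P. For both Psmb9 and Nqo1, total Pol II was the higher in shRPAP1 and Ser5P the lower. The counting intervals of the total Pol II ratio, -0.22 to 4.24 for Psmb9 and -0.90 to 3.18 for Nqo1, include 0. Psmg2, an assembly chaperone of the proteasome, had 288 in shRPAP1 and 119 in SCR with total Pol II. Mon1a, part of an exchange factor for Rab7, had 208 in shRPAP1 and 95.9 in SCR. Kbtbd3 had 203 in shRPAP1 and 98.1 in SCR. The starts of 1 gene from each end are shown: Fbxo10, chr4:45084555-45084854 on the minus strand, with 4 SP/KLF boxes and an E-box, and Nqo1, chr8:107403156-107403455 on the minus strand, with 2 SP/KLF boxes, a TATA box and 5 CpG dinucleotides.
Fbxo10: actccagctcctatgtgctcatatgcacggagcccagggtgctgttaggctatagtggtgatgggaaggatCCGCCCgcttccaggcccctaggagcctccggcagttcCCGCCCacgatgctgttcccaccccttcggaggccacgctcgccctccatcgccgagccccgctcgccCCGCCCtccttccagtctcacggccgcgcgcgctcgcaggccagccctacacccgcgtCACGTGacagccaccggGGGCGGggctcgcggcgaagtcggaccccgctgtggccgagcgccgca
Nqo1: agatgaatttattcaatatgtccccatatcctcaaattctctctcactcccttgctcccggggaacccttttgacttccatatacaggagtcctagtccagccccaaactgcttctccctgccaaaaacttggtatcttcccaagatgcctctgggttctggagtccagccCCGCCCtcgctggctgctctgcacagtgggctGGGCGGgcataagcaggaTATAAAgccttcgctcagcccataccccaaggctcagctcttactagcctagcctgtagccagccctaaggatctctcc

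Rpap1, the gene the hairpin targets, is itself a member. It had a total Pol II promoter signal of 325 in shRPAP1 and 211 in SCR, and a Ser5P promoter signal of 541 in shRPAP1 and 886 in SCR. Its total Pol II gene body signal was 14.3 in shRPAP1 and 14.3 in SCR, with 20.4 in shRPAP1 and 25.9 in SCR with Ser5P. Since a hairpin acts on the RNA, these values are no measure of the knockdown. Rpap3, which encodes another protein that associates with Pol II, is a member as well, with 116 in shRPAP1 and 222 in SCR at the promoter with total Pol II.

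The balance of total Pol II and Ser5P in SCR varied among members. The lowest share of total Pol II was at Mroh8, with 29.6 against a Ser5P signal of 664, and at Dhx35, a DEAH-box helicase, and Smyd2, a lysine methyltransferase, both also with 29.6, the value of 1 read. The highest was at Ppp1r3c, which targets protein phosphatase 1 to glycogen, with 493 against 555, at Ipmk, an inositol phosphate kinase, with 492 against 571, and at Ssmem1, with 491 against 577. Ssmem1 starts 4 bases from Tmem209 on the other strand, whose Ser5P promoter signal was 611 in shRPAP1 and 1633 in SCR. The total Pol II promoter log2 ratio of Ppp1r3c was -1.83 (-3.56 to -0.27). That of Mroh8, on 2 reads in shRPAP1 and 1 in SCR, could not be read.

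Members were longer than the other promoter-loaded genes. Of the 1054, 1024 (97.2%) matched a RefSeq gene, 955 of them protein-coding and 61 lncRNA, and their median length was 34366 bases (quartiles 17866 to 74328). The other promoter-loaded genes had a median of 15749 bases, and those under 1000 at the Ser5P promoter 17136 bases. The share of promoter-loaded genes that were members was 3.45% (33 of 957) up to 5 kb, 7.05% from 5 to 10 kb, 13.9% from 10 to 20 kb, 22.3% from 20 to 50 kb, 24.4% from 50 to 100 kb and 41.5% (185 of 446) over 100 kb. A gene body value is an average over the whole body. The members' median Ser5P gene body signal for genes up to 5 kb was 21.4 in shRPAP1 and 25.6 in SCR. For genes of 5 to 10 kb it was 24.7 in shRPAP1 and 31.8 in SCR, and for genes over 100 kb it was 22.2 in shRPAP1 and 24.2 in SCR. The part that length-averaging plays in the membership was not tested. At promoters the median total Pol II log2 ratio was -0.83 in members up to 5 kb, -0.78 from 5 to 10 kb, -0.82 from 10 to 20 kb, -0.97 from 20 to 50 kb, -1.09 from 50 to 100 kb and -1.04 over 100 kb.

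**Figure D4:**
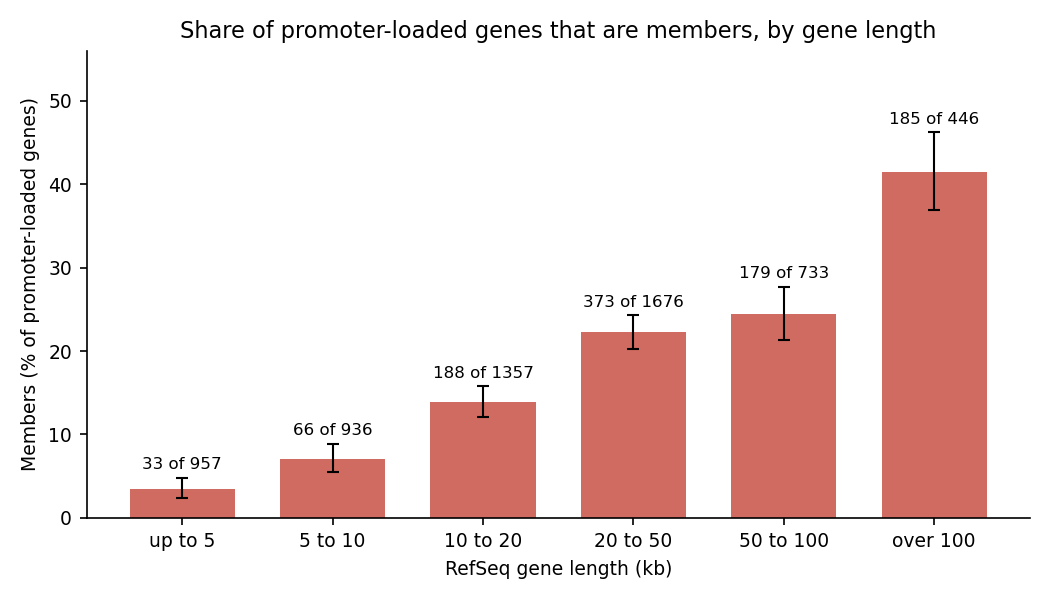
Members as a percentage of promoter-loaded genes (vertical axis) by RefSeq gene length in kb (horizontal axis); bars give the share, whiskers the exact 95% binomial interval, and numbers the members of promoter-loaded genes. The share was 3.45% up to 5 kb and 41.5% over 100 kb, with each class above the one before.

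The longest protein-coding members were Pcdh9, a protocadherin of 879135 bases, and Arhgap26, a GTPase-activating protein of 774669 bases. Pcdh9 had a total Pol II promoter signal of 87.3 in shRPAP1 and 179 in SCR, and 375 in shRPAP1 and 591 in SCR with Ser5P. Arhgap26 had 187 in shRPAP1 and 179.6 in SCR for total Pol II, and its start lies 270 bases from that of Spry4, an inhibitor of receptor tyrosine kinase signalling, on the other strand. The shortest were Nkapl, of 1455 bases, with 102 in shRPAP1 and 222 in SCR, and Teddm2, of 1654 bases, with 419.7 in shRPAP1 and 538 in SCR.

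Another gene started close by at 369 of the 1024 matched members (36.0%) within 1000 bases, 357 of them (34.9%) on the other strand. Among other promoter-loaded genes the shares were 34.8% and 32.7%. At 221 members (21.6%) the neighbour had a gene body of 40 or more in SCR with either antibody, against 20.6% of other promoter-loaded genes. Members with such a neighbour and those with none had similar values: the median total Pol II promoter signal was 151 in shRPAP1 and 289 in SCR with an active neighbour (log2 ratio -0.93), and 135 in shRPAP1 and 260 in SCR for the 655 members with no other start within 1000 bases (log2 ratio -0.98). The shares of both sets lay close together. Examples of a low gene body beside an active neighbour are Acad8 with Thyn1, which had 59.6 in shRPAP1 and 77.8 in SCR over its gene body with total Pol II, and Ift80 with Smc4, a condensin subunit, which had 59.1 in shRPAP1 and 91.1 in SCR.

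The 13 lists of pathway genes described next were written after the members' names had been seen, so a high share in a list describes these genes and supports nothing beyond that. Among all promoter-loaded genes 16.5% were members. The share was 8 of 9 promoter-loaded genes of the ciliary transition zone, 12 of 16 of intraflagellar transport and the BBSome, 14 of 21 of branched-chain amino acid and propionate breakdown, 13 of 22 of fatty acid oxidation and 12 of 21 of DNA break repair. It was 5 of 10 for the HAUS and gamma-tubulin complexes, 8 of 17 for GPI anchor synthesis, 9 of 21 for mitochondrial translation, 5 of 15 for TFIID and SL1, 5 of 18 for the TRAPP and COG tethers and 6 of 22 for core autophagy genes. At the other end, 0 of 68 promoter-loaded genes of cytosolic ribosomal proteins and 0 of 21 immediate early genes were members.

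**Figure D5:**
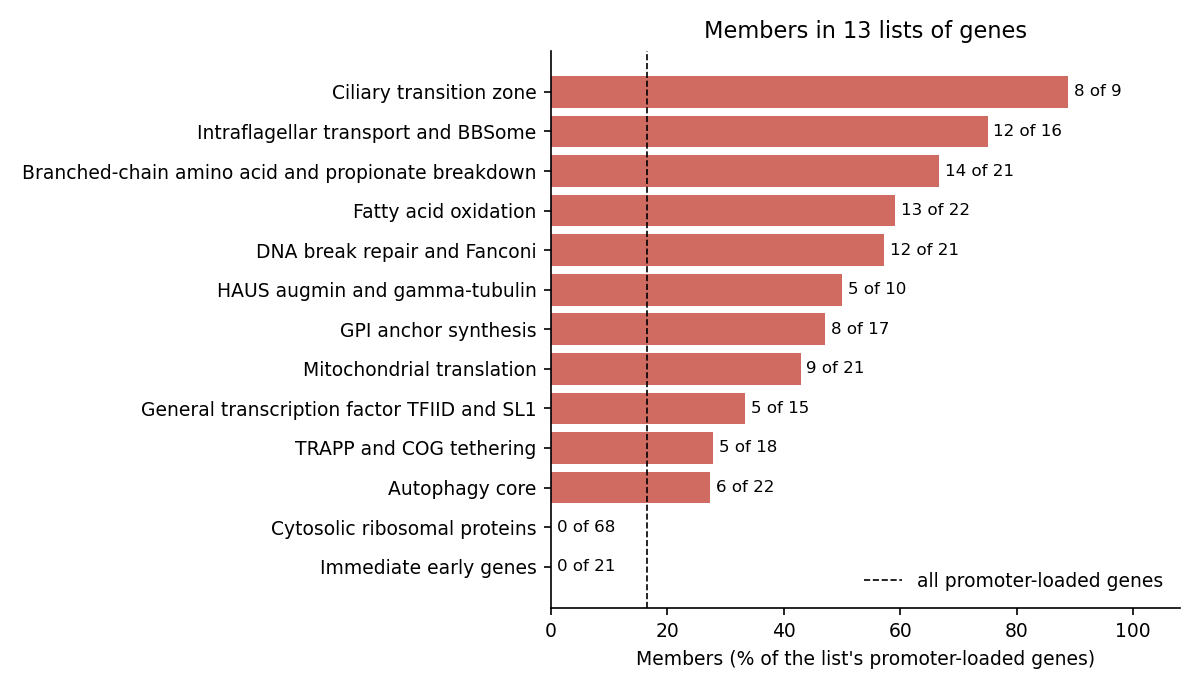
Members as a percentage of the promoter-loaded genes of 13 lists (horizontal axis); numbers give the members and the promoter-loaded genes of each list, and the dashed line is the 16.5% of all promoter-loaded genes. The lists were written with the members' names known, and the shares run from 8 of 9 for the ciliary transition zone to 0 of 68 for cytosolic ribosomal proteins.

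Branched-chain amino acids are broken down in mitochondria, first by a transaminase and a dehydrogenase complex and then by separate enzymes for leucine, isoleucine and valine, with propionate as an end product of the isoleucine and valine routes. Of the dehydrogenase complex, Bckdha, its E1 alpha subunit, had a total Pol II promoter signal of 75.7 in shRPAP1 and 133 in SCR. Dbt, its E2 subunit, had 105 in shRPAP1 and 370.0 in SCR. Both were lower in shRPAP1. On the leucine route, Ivd, isovaleryl-CoA dehydrogenase, had 29.6 in shRPAP1 and 162 in SCR, and both methylcrotonyl-CoA carboxylase subunits were members, Mccc1 with 145 in shRPAP1 and 232 in SCR and Mccc2 with 58.4 in shRPAP1 and 252 in SCR. On the valine route, Acad8, isobutyryl-CoA dehydrogenase, had 289 in shRPAP1 and 288 in SCR, and was the one of these whose values were level. Hibch, which releases hydroxyisobutyrate from its CoA ester, had 221 in shRPAP1 and 414 in SCR, and Hibadh, which oxidises it, had 87.3 in shRPAP1 and 350.5 in SCR. Acadsb, of the isoleucine route, had 171 in shRPAP1 and 369 in SCR.

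For propionate, Pccb, a propionyl-CoA carboxylase subunit, had 116 in shRPAP1 and 331 in SCR with total Pol II. Mcee, the methylmalonyl-CoA epimerase, had 58.4 in shRPAP1 and 224 in SCR, and Mut, the mutase that follows it, had 145 in shRPAP1 and 87.3 in SCR. Mut was the member of the list that was at least 1.5-fold higher in shRPAP1, on 5 reads in shRPAP1 and 3 in SCR. Mmab, which makes the mutase's cobalamin cofactor, had 128 in shRPAP1 and 232 in SCR. Hlcs, which attaches biotin to the carboxylases, had the highest Ser5P promoter signal of the list in SCR, with 608 in shRPAP1 and 1432 in SCR. With total Pol II, 12 of these 14 members were at least 1.5-fold lower in shRPAP1 and 1 was at least 1.5-fold higher, beside 67.4% and 2.95% of all members, with a median log2 ratio of -1.26, beside -0.95 over all members.

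In fatty acid oxidation, Cpt1a and Cpt2 are the carnitine palmitoyltransferases that bring long-chain fatty acids into mitochondria. Cpt1a had a total Pol II promoter signal of 72.1 in shRPAP1 and 301 in SCR, and Cpt2 had 195 in shRPAP1 and 437 in SCR. Crot, the carnitine octanoyltransferase of peroxisomes, had 93.0 in shRPAP1 and 477 in SCR. All 3 transferases had the lower value in shRPAP1. Of the dehydrogenases, Acadm, for medium chains, had 29.6 in shRPAP1 and 203 in SCR, and Acad9, Acad10 and Acad12 were members too. Hadhb, the beta subunit of the trifunctional protein, had 182 in shRPAP1 and 427 in SCR, with a Ser5P gene body signal of 27.5 in shRPAP1 and 35.6 in SCR. Hadha, the alpha subunit of the same enzyme, starts 273 bases away on the other strand and by the same measure had 23.0 in shRPAP1 and 52.8 in SCR, so in SCR the pair stands on both sides of the threshold of 40. Decr1, a dienoyl-CoA reductase, had 174 in both libraries. In the list 12 of 13 members were at least 1.5-fold lower with total Pol II and 0 higher, beside 67.4% of all members and 69.2% of all genes measured that were lower. With Ser5P 7 of 13 were lower, beside 88.0% of all members, and the median log2 ratio was -1.06 with total Pol II and -0.76 with Ser5P.

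Primary cilia are built by intraflagellar transport, whose motor for the return journey is dynein-2, and fibroblasts carry one when they stop dividing. Dync2h1, the dynein-2 heavy chain, had a total Pol II promoter signal of 164 in shRPAP1 and 309 in SCR. Of the intraflagellar transport proteins, Ift52 had 29.6 in shRPAP1, the value of 1 read, and 260.4 in SCR, and Ift172 had 116 in shRPAP1 and 221 in SCR. Ift74 had 174 in shRPAP1 and 181 in SCR, and Ift80 had 199 in shRPAP1 and 219 in SCR. The first pair was lower in shRPAP1 by more than 1.5-fold and the second pair by less. Wdr35 had 115 in shRPAP1 and 306 in SCR, and Wdr19, of the same complex A, had 168 in shRPAP1 and 145 in SCR. Of the BBSome, a coat that moves membrane proteins in cilia, Bbs2 had 232 in shRPAP1 and 517 in SCR, Bbs4 had 129 in shRPAP1 and 356 in SCR, and Ttc8 had 198 in shRPAP1 and 145 in SCR. In the list 7 of 12 members were at least 1.5-fold lower with total Pol II and 0 higher, beside 67.4% of all members that were lower. The promoter-loaded genes of the list that were not members were Ift20, Ift43, Ift46 and Bbs10, with Ser5P gene body signals of 107, 75.7, 70.8 and 55.4 in SCR.

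The transition zone is the gate at the base of the cilium. Tmem67 had a total Pol II promoter signal of 54.1 in shRPAP1 and 171 in SCR, Tmem237 had 116 in shRPAP1 and 519 in SCR, and Mks1 had 150.0 in shRPAP1 and 179 in SCR. Invs, of the inversin compartment next to it, had 117 in shRPAP1 and 179 in SCR. Tmem138 had the highest Ser5P promoter signal of the group in SCR, with 364 in shRPAP1 and 1248 in SCR. Of the 8 members, 7 were at least 1.5-fold lower with total Pol II, beside 67.4% of all members and 69.2% of all genes measured, with a median log2 ratio of -1.13. With Ser5P, whose SCR values the rule used, 8 of 8 were lower, beside 88.0% of all members. The one promoter-loaded gene of the list that was no member, Tmem107, had a Ser5P gene body signal of 130.3 in shRPAP1 and 226 in SCR.

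Among DNA break repair genes, members came from both main routes. Of end joining, Xrcc5 (the Ku80 subunit) had a total Pol II promoter signal of 260.4 in shRPAP1 and 234 in SCR, Prkdc, its kinase partner, had 221 in shRPAP1 and 317 in SCR, and Xrcc4, which acts with the ligase, had 232 in shRPAP1 and 236 in SCR. Nhej1, another factor of ligation, had 131 in shRPAP1 and 468 in SCR. Nhej1 was lower by more than 1.5-fold and the other 3 were not. Of the break-sensing complex, Mre11a had 116 in shRPAP1 and 246 in SCR, and Rad50 had 289 in shRPAP1 and 232 in SCR, while Nbn, the remaining subunit, was no member, with a Ser5P gene body signal of 37.8 in shRPAP1 and 73.5 in SCR. Slx4, a scaffold of nucleases, had 233 in shRPAP1 and 279.8 in SCR. In this list 6 of 12 members were at least 1.5-fold lower with total Pol II and 0 higher, beside 67.4% of all members that were lower, with a median log2 ratio of -0.74. With Ser5P 10 of 12 were lower, beside 88.0% of all members, and the highest signal in SCR was that of Slx4, with 349.8 in shRPAP1 and 1079 in SCR.

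Of the basal transcription machinery, the 3 SL1 subunits Taf1a, Taf1b and Taf1c, which serve RNA polymerase I, were members beside Taf13 and Taf4b of TFIID. Taf1a had a total Pol II promoter signal of 160.1 in shRPAP1 and 245 in SCR, Taf1b had 232 in shRPAP1 and 397 in SCR, and Taf1c had 289 in shRPAP1 and 376 in SCR. All 3 had the lower value in shRPAP1. Taf12, another TFIID subunit, was no member by a narrow margin. Its Ser5P gene body signal was 28.8 in shRPAP1 and 41.1 in SCR, and its Ser5P promoter signal 1088 in shRPAP1 and 1969.6 in SCR. Polr3b, the second-largest subunit of RNA polymerase III, was also a member, with a Ser5P promoter signal of 1184 in shRPAP1 and 1297 in SCR, a log2 ratio of -0.13 (-0.78 to 0.51). Its start lies 353 bases from a predicted gene, Gm17249, on the other strand, which had a Ser5P gene body signal of 98.0 in shRPAP1 and 164 in SCR.

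In the remaining pathway lists the members' median total Pol II promoter log2 ratios ran from -1.56 for the TRAPP and COG tethers to -0.29 for the HAUS and gamma-tubulin list. Their counts of genes at least 1.5-fold lower with total Pol II stand beside 67.4% of all members and 69.2% of all genes measured, and their difference from these shares was not tested. Mitochondrial translation had 9 members, 7 of them tRNA synthetases or subunits for charging tRNAs, and a median total Pol II log2 ratio of -1.04, with 8 of 9 at least 1.5-fold lower. Nars2, for asparagine, had 159 in shRPAP1 and 433 in SCR, and Wars2, for tryptophan, had 283 in shRPAP1 and 244 in SCR. GPI anchor synthesis, which makes the lipid anchor of surface proteins, had 6 of 8 lower, for example Pigo with 64.2 in shRPAP1 and 349 in SCR. TRAPP and COG, tethers of vesicles at the Golgi, had 5 of 5 lower, with Trappc11 at 58.4 in shRPAP1 and 347 in SCR. Core autophagy genes had 5 of 6 lower, among them Atg5 with 174 in shRPAP1 and 331 in SCR and Atg7 with 206 in shRPAP1 and 489.7 in SCR. The HAUS and gamma-tubulin list, for the nucleation of microtubules, had 2 of 5 lower and 1 higher: Haus8 had 29.6 in shRPAP1, the value of 1 read, and 383 in SCR, and Nedd1 had 145 in shRPAP1 and 75.7 in SCR.

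Families taken by the start of the gene symbol were spread less unevenly. Centrosome and cilium names had 30 members of 84 promoter-loaded genes, solute carriers, channels and Tmem names 36 of 174, DNA repair names 12 of 61 and zinc finger names 28 of 177. Ubiquitin system names had 19 of 149, small GTPases and their regulators 13 of 94, mitochondrial and tRNA names 23 of 170, RNA processing names 26 of 190, and signalling kinases and phosphatases 11 of 94. Chromatin names had 8 of 113, axon and adhesion names 3 of 13, developmental transcription factors 1 of 21, the forkhead factor Foxo1, and Wnt, BMP, FGF, Notch and Hedgehog names 0 of 16. Genes classed as noncoding by name or RefSeq entry had 63 of 365 and predicted names 126 of 707. Matching by name also took in genes of other kinds, such as Polr3b among the DNA repair names and Mocos among the noncoding ones. Zfp619, a zinc finger protein, had a Ser5P promoter signal of 982 in shRPAP1 and 1596 in SCR, and Zfp943 had 422 in shRPAP1 and 1519.6 in SCR. Klhl20 and Fbxl18, substrate adaptors of ubiquitin ligases, had 659 and 728 in shRPAP1 and 1191 and 993 in SCR. All of these were lower in shRPAP1, which their choice by high Ser5P in SCR favours. The zinc finger names as a group had 20 of 28 members at least 1.5-fold lower with total Pol II. This was near the 67.4% of all members and the 69.2% of all genes measured. With Ser5P, whose SCR values the rule used, 28 of 28 were lower, beside 88.0% of all members.

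Other members named by family were also picked by their high Ser5P signal in SCR, which favours a lower Ser5P value in shRPAP1. Among all 1054 members, 1049 had a Ser5P log2 ratio below 0, beside 5285 of the 5345 other promoter-loaded genes. Arl4d, a small GTPase, had a Ser5P promoter signal of 883 in shRPAP1 and 1522 in SCR, and Slc29a3, a nucleoside transporter, had 807 in shRPAP1 and 1346 in SCR. Cdkl3, a kinase, had 428 in shRPAP1 and 931 in SCR, and Mapk1ip1 had 457 in shRPAP1 and 905 in SCR. Each was lower in shRPAP1 by more than 1.5-fold. Epha7, an ephrin receptor, had 289 in shRPAP1 and 616 in SCR, and Ercc6l2, a DNA repair helicase, had 442 in shRPAP1 and 1194 in SCR. Mrps28, a protein of the small mitochondrial ribosomal subunit, had 184 in shRPAP1 and 1079.6 in SCR, and Coq3, a methyltransferase of coenzyme Q synthesis, had 553 in shRPAP1 and 1021 in SCR. Mrps28 showed the most negative Ser5P log2 ratio among the members named by family, -2.55 (-4.16 to -1.37). Ddx59, a DEAD-box helicase, had 565 in shRPAP1 and 1381 in SCR, and shares its start region with 9230116N13Rik, 248 bases away on the other strand. Kdm2b, a histone lysine demethylase, had 584 in shRPAP1 and 1303 in SCR, and Setd4, a SET-domain methyltransferase, had 952 in shRPAP1 and 1211 in SCR.

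Of the 4 noncoding or predicted genes named for the highest Ser5P promoter signals in SCR, 3 start beside another gene. Gm12694 had 676 in shRPAP1 and 1929 in SCR with Ser5P, and starts 34 bases from Mysm1, a histone deubiquitinase, whose Ser5P gene body signal was 38.9 in shRPAP1 and 61.0 in SCR. 1110019D14Rik had 912 in shRPAP1 and 1832 in SCR and starts 51 bases from 2610001J05Rik. 4931406C07Rik, with 1161 in shRPAP1 and 2674 in SCR, starts 495 bases from Taf1d, a further SL1 subunit, whose own gene body had 152 in shRPAP1 and 399.6 in SCR. 9030617O03Rik had 1042 in shRPAP1 and 2589 in SCR with Ser5P, and 339 in shRPAP1 and 1414 in SCR with total Pol II, a log2 ratio of -2.06 (-3.08 to -1.10). No other start lay within 1000 bases of it.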

How the data were processed

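Chromatin immunoprecipitation and sequencing values from 4 libraries of the 17 samples were used, and the input library and the 12 RNA samples were not analysed here. The authors deposited a signal (coverage) per gene, in a promoter and a gene body window, for each library. The submitters' processing notes name FastQC, SAMtools 0.1.16, bedtools 2.23.0, MACS2 2.0.10.20130712 and the GRCm38 (mm10) build. For the aligner, the scaling of the libraries and any input correction: not given in the sources used here. Groups follow the titles and treatments, since the description field of the 2 shRPAP1 ChIP libraries gives the control hairpin's name.

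Of 36230 rows, 58 exact repeats were dropped. Of 144688 promoter values, 99.995% were whole multiples of 0.721 within 0.0051, and 40 steps gave 1 read (28.8 units). Low gene body values fitted a body that starts 302 bases downstream of the start at 1775 of 2153 genes (82.4%), and a promoter window of 330 bases. Log2 ratios used pseudocounts of 0.72 at promoters and 0.33 over bodies (the 5th percentile). Genes above the 95th percentile of background genes in at least 1 library of a pair counted as measured, and 1.5-fold as lower or higher. With 1 library per group no test between conditions was made. Intervals are exact 95% ones: Clopper-Pearson for ratios of reads and shares, Poisson for reads, and order statistics for medians. Those of reads cover counting error only, and those of medians the spread across genes. PCR copies are not independent molecules. The total Pol II promoter ratio, the counting interval of a ratio of reads and the recovery of reads from promoter values were checked on simulated data. The other calculations were not.

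Members were matched to RefSeq by symbol (975) or older symbol (49), and 1007 had a GENCODE M21 length. Sequences are RefSeq promoters on GRCm38.p6. Named members are the 10 with the highest Ser5P promoter in SCR, the 5 highest and 5 lowest total Pol II ratios on at least 10 reads, the 3 at each end of total Pol II over Ser5P in SCR, those next to each threshold, 2 per symbol family with at least 3 members, the 2 longest and 2 shortest, and genes that share a start with them. Predicted names and the names of the background receptor genes were left out of the first 3 groups, but Tnfrsf9 was kept. Of these and of the pathway lists' genes, 2 are not reported here. Rpap1, Rpap3, Foxo1 and the pathway lists' genes were added after their values were seen. The members and lists were chosen with earlier results of these data known. The alternatives changed the scaling, pseudocount, filter, thresholds, neighbour window, member subset and annotation. Python 3.11.15, numpy 2.4.6, pandas 2.3.3, scipy 1.17.1 and matplotlib 3.10.9 were used.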

Additional observations from a re-analysis of the deposited data

How the results depend on the processing

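Of 59 recalculated values under other settings, 34 stayed within the interval of the reported one, 21 moved out of it and 4 changed sign. For medians that interval reflects the spread across genes and not counting error. With the median over all measured genes set to 0, the members' median log2 ratio of shRPAP1 over SCR was 0.12 at total Pol II promoters, -0.13 at Ser5P promoters, 0.34 over total Pol II bodies and 0.32 over Ser5P bodies. With the mean of background genes set equal it was -1.72, -1.69, -1.05 and -1.16 in the same order. With the background mean subtracted it was -1.06 at total Pol II promoters, -0.73 over total Pol II bodies and -0.88 over Ser5P bodies. The gap between the medians of members and other promoter-loaded genes at total Pol II promoters ran from 0.14 to 0.17 on the log2 scale over the settings tried for it. By summed reads these sets lay closer together, with log2 ratios of -0.94 and -0.998.

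Other choices moved the gene body ratios. The reported medians over measured members, which passed the filter mostly through SCR, were -0.22 with total Pol II and -0.40 with Ser5P. Without a filter they were -0.084 and -0.31, and for members with a Ser5P SCR promoter of at least 1000 -0.19 and -0.36. Members with both SCR bodies below 20 had -0.87 at total Pol II promoters. Over Ser5P bodies only 1 of them was measured, at 1.10, and over total Pol II bodies none was measured, so no value could be given. A pseudocount 10 times larger gave -0.36 over Ser5P bodies. The log2 ratio of promoter to gene body in shRPAP1 was 2.62 with total Pol II and 3.94 with Ser5P as reported, 2.51 and 3.78 with that pseudocount, and 3.65 and 4.74 with the background subtracted. The share of members with a start nearby was 31.8% within 500 bases, 40.1% within 2000 bases and, with an annotation chosen after seeing the data (GENCODE), 41.7%. The subset with genes over 20 kb was also chosen after seeing the data. The causes of these shifts were not tested.

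No paired analysis was possible because each group has 1 library per antibody, and for the same reason there was no replicate to leave out. Depth limits single promoters: a median of 5 reads in shRPAP1 and 9 in SCR with total Pol II separates few genes.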
